A study of Mus musculus with 16 samples.

Results

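Chemokines and chemokine receptors were followed through the 4 groups of mice. Members were all genes of the deposited count table whose Ensembl identifier maps, in GENCODE M21 on the mouse build GRCm38, to a protein-coding symbol that begins with Ccl, Cxcl, Cx3cl, Ccr, Cxcr or Cx3cr followed by a number. This gave 45 of the 29730 genes in the table, 31 ligands and 14 receptors, out of 61 such genes in the annotation. Of the 45 members, 22 had enough reads to be tested (17 ligands and 5 receptors, of which 21 members are described here), and 23 did not.

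Chemokines are small secreted proteins that direct the movement of leukocytes and of some progenitor cells along a gradient. Their receptors are G protein-coupled receptors on the surface of the responding cells, and many ligands share a receptor. In skeletal muscle, ligands of Ccr2 and Cx3cr1 are known for recruiting monocytes and macrophages, Cxcl9 and Cxcl10 are ligands of Cxcr3 on lymphocytes, and Cxcl12, the ligand of Cxcr4, is made constitutively by stromal cells.

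RNA sequencing was performed on the tibialis anterior, a leg muscle, of 16 male C57BL/6N mice aged 7 weeks, 4 in each group: wild-type (WT) mice given PBS (WT_PBS), WT mice given ASO1 (WT_ASO), Bin1mck-/- mice given PBS (KO_PBS) and Bin1mck-/- mice given ASO1 (KO_ASO). ASO1 is an antisense oligonucleotide, a short synthetic strand that lowers the RNA it pairs with, and Dnm2 is its target according to the title of the series. The sources used here do not say what "mck" stands for, which part of Bin1 was deleted, what dose was injected and when, or whether the mice were littermates. P-values here weigh differences between groups against the spread between these libraries. The comparisons ask how the knockout, the oligonucleotide in each genotype, and both together relate to the level of these genes.

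The libraries held 27591900 to 40862854 counts. Bin1 was at 463 to 620 CPM (counts divided by the TMM-scaled library size and given per 1e+06) in the 8 WT libraries and at 31.7 to 47.7 CPM in the 8 knockout libraries, and Dnm2 was at 50.2 to 67.7 CPM in the 8 PBS libraries and at 20.7 to 31.1 CPM in the 8 ASO1 libraries, so both genes followed the labels. The 8 skeletal muscle fibre markers summed to 175000 to 223100 CPM in WT_PBS, 188100 to 261400 in WT_ASO, 123200 to 155200 in KO_PBS and 157700 to 182000 in KO_ASO, so that KO_PBS lay below WT_PBS without overlap. The library KO_PBS replicate 4 stood apart in leukocyte genes: its 10 macrophage markers summed to 325.9 CPM against 110.3 to 183.6 CPM in the other KO_PBS libraries, and its 6 neutrophil markers to 7.57 CPM against 0.707 to 1.96 CPM. Folds against KO_PBS are therefore also given without this library for the members on which the results turn, and the plot of folds with and without it shows 21 members. In bulk muscle, a change in the number of cells of a type and a change in RNA per cell cannot be told apart.

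Sequence upstream of 3 members whose test passed the threshold is shown first, because Cxcl10 and Cxcl9 are neighbours on chromosome 5 with different patterns across the groups and Ccl9 was the member called under ASO1. Each run is the 250 bases before the RefSeq start site on GRCm38.p6, read 5′ to 3′ on the strand of the gene, from chr5:92348890-92349139 (minus strand) for Cxcl10, chr5:92328080-92328329 (minus strand) for Cxcl9 and chr11:83578637-83578886 (minus strand) for Ccl9. Capitals mark matches, on either strand, to the NF-kappaB consensus or to the interferon response element, here 2 copies of GAAA with any 2 bases between them.
Cxcl10: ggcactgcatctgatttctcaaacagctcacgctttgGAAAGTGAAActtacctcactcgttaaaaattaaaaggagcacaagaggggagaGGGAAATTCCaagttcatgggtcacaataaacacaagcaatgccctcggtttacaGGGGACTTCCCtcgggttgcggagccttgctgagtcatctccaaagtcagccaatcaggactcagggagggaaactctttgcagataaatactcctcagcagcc
Cxcl9: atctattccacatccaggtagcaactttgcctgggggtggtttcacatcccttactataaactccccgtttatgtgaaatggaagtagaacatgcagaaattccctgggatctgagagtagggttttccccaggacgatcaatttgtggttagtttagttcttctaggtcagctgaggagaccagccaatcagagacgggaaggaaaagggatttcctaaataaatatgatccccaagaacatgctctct
Ccl9: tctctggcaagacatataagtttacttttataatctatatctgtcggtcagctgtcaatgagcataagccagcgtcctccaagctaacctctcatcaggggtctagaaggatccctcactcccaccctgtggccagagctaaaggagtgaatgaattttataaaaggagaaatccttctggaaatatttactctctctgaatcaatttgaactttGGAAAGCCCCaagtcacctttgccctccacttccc

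The Cxcl10 window held 1 interferon response element, 213 to 204 bases before the start, and NF-kappaB consensus matches at 159 to 150 bases and at 104 to 94 bases, where overlapping matches share letters. The Cxcl9 window held neither, and the Ccl9 window held 1 NF-kappaB match at 35 to 26 bases. The STAT site, TTC and GAA with any 3 bases between them, was also searched on both strands and was in none of these 3 windows. Of the 45 members, 31 had a window in the RefSeq table: 7 held an NF-kappaB consensus, 3 an interferon response element and 3 a STAT site. Over all 32851 windows of the same length, 7.25% held an NF-kappaB consensus, 2.98% an interferon response element and 7.02% a STAT site. Members were counted by a match in any of their 34 windows and these shares by single window, so the units differ. A match describes letters only, and no match says only that these letters are not in this window.

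The level of the members per length of exon spanned 3 more abundant ligands, Cxcl12, Cxcl14 and Ccl11, and a long tail of weakly expressed genes. Cxcl12 was the highest on the RPKM scale (CPM per kilobase of exon, a level), at 12.6 ± 1.57 in WT_PBS, 9.42 ± 1.40 in WT_ASO, 11.2 ± 1.48 in KO_PBS and 11.8 ± 1.99 in KO_ASO (mean ± SD, n = 4). Cxcl14, a ligand made by epithelial and stromal cells, followed at a mean of 10.7 RPKM over the 16 libraries, within the spread of Cxcl12. Ccl11, the eosinophil attractant eotaxin, was at 6.51 RPKM, and Ccl6, Ccl9 and Ccl8, ligands expressed by myeloid cells, at 4.01, 1.59 and 1.55 RPKM. Each pair of neighbours in the order of these 21 members overlapped across the 16 libraries. Cxcr4 was the receptor with the highest level, at 1.54 RPKM. Reads of Cxcl12 made up 58.7% of all 86622 member counts, and Cxcl12, Cxcl14 and Ccl11 together 75.7%.

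**Figure D1:**
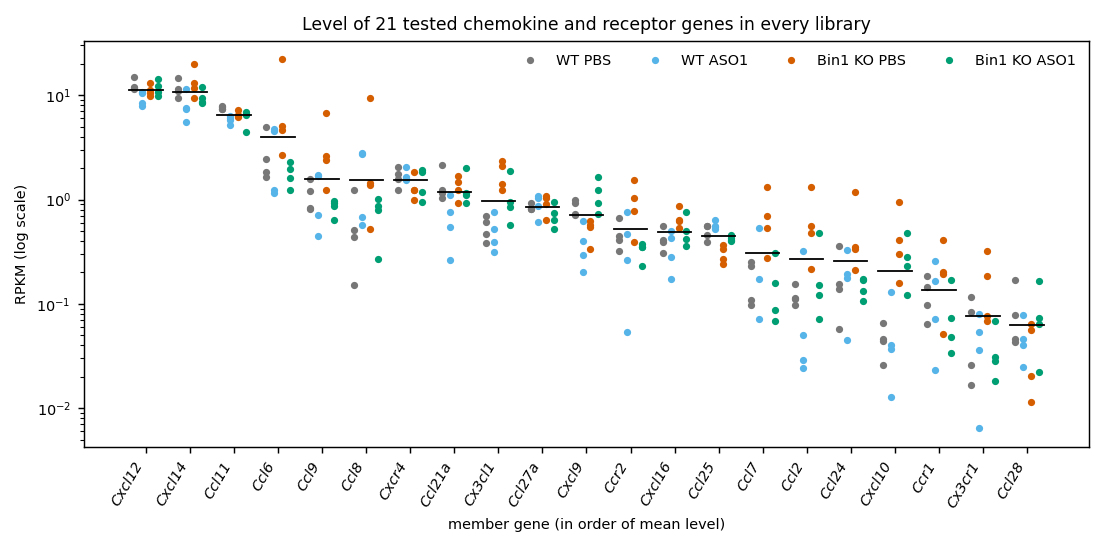
RPKM (log axis) of 21 tested members in each of the 16 libraries, coloured by group, with a line at the mean over libraries; genes are ordered by that mean. Cxcl12, Cxcl14 and Ccl11 sit at the top with means of 11.2, 10.7 and 6.51 RPKM, Ccl6, Ccl9 and Ccl8 have 1 KO_PBS library far above the rest, and 1 value of 0 (Ccl7 in WT_ASO replicate 1) is not drawn.

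In knockout muscle given PBS, the interferon-inducible ligand Cxcl10 and the membrane-tethered ligand Cx3cl1 rose, and Ccl25 fell. The macrophage ligand Ccl9 was also called higher, but its groups overlapped and the call was lost without KO_PBS replicate 4. The monocyte attractant Ccl2 rose as well, but it could be tested only because it was high in KO_PBS. Of the 22 tested members 5 (4 higher and 1 lower) passed the threshold of an adjusted P under 0.05 in KO_PBS against WT_PBS, where 12.6% of all 14960 tested genes did (7.43% higher and 5.12% lower). The median log2 fold change was 0.92 over the tested members, 0.61 without KO_PBS replicate 4, and -0.01 over all tested genes. Higher genes made up 59.2% of all calls, and 88.2% when counts were scaled by library totals alone, a scaling that moved the median of all genes to 0.14 and called 6 members higher and 1 lower, where it called 14.7% of all tested genes. The tested members do not stand for all 45: 3 of them, Ccl2, Ccl7 and Ccl24, passed the filter on low counts only with the help of KO_PBS, so that a higher level there is partly fixed for them. Leaving these 3 out, 4 of 19 members were called, and the median was 0.66.

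Cxcl10 (ENSMUSG00000034855, chr5:92346638-92348889, minus strand), a ligand of Cxcr3, had 2, 4, 4 and 4 counts in WT_PBS and 13, 24, 38 and 86 counts in KO_PBS. On the CPM scale these were 0.0585 to 0.149 and 0.358, 0.680, 0.926 and 2.12. Every KO_PBS library was above every WT_PBS library. Such a separation of 4 from 4 has an exact two-sided permutation p of 0.0286, the smallest this design allows. The fold was 9.86 (log2 fold change 3.30, SE 0.64, edgeR adjusted P = 0.0031). Without KO_PBS replicate 4 it was 2.67 on the log2 scale (edgeR adjusted P = 0.00978), and it stayed past the threshold in all 23 alternatives run. Outside KO_PBS, Cxcl10 reached the level of the filter on low counts in 4 libraries, the fewest that the filter accepts. With the compared groups alone it passed that filter only through KO_PBS. Exons of Cxcl10 overlap Art3 on the other strand, and whether the counting used strand is not given in the sources used here.

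Cx3cl1 (chr8:94772009-94782427, plus strand), also called fractalkine, is made by endothelial and other tissue cells and binds Cx3cr1 on monocytes and macrophages. It was at 2.75, 1.49, 1.84 and 2.38 CPM in WT_PBS and at 9.15, 4.87, 5.53 and 8.31 CPM in KO_PBS. The groups were apart, and no single library set the difference. The log2 fold change was 1.71 (SE 0.35, edgeR adjusted P = 0.00468), and 1.62 without KO_PBS replicate 4 (edgeR adjusted P = 0.0139).

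Ccl2 (chr11:82035571-82037453, plus strand), the main attractant of Ccr2-bearing monocytes, had 6, 3, 5 and 5 counts in WT_PBS and 23, 19, 10 and 61 counts in KO_PBS. The lowest KO_PBS library, replicate 3, was above the highest WT_PBS library at 0.244 against 0.175 CPM. The log2 fold change was 2.40 (SE 0.70, edgeR adjusted P = 0.0341). Part of this fold is fixed by the filter on low counts, which Ccl2 passed only through KO_PBS. The call stood when no filter was applied (edgeR adjusted P = 0.0459), and with the 2 compared groups alone Ccl2 was too low to be tested. It rested on few reads and was lost on leaving out any 1 WT_PBS library, KO_PBS replicate 1 or KO_PBS replicate 4, with a log2 fold change of 1.76 (edgeR adjusted P = 0.122) without the last.

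Ccl9 (chr11:83572919-83578636, minus strand), a ligand of Ccr1 expressed by macrophages, was at 4.77, 3.65, 2.54 and 2.48 CPM in WT_PBS and at 7.97, 7.34, 3.73 and 20.6 CPM in KO_PBS. KO_PBS replicate 3 lay inside the WT_PBS range and KO_PBS replicate 4 far above every other library. The log2 fold change was 1.57 (SE 0.48, edgeR adjusted P = 0.0426). The call was lost without KO_PBS replicate 4 (log2 fold change 0.93, edgeR adjusted P = 0.158) and on leaving out WT_PBS replicate 2, 3 or 4, KO_PBS replicate 1, or KO_ASO replicate 2 or 3. It was also lost with limma-voom (adjusted P = 0.0681) and with no filter on low counts (edgeR adjusted P = 0.129).

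Ccl25 (chr8:4325210-4360020, plus strand), a ligand of Ccr9 best known from thymus and gut, was the member that fell. It was at 3.42, 4.17, 2.91 and 4.14 CPM in WT_PBS and at 2.01, 2.72, 1.78 and 2.49 CPM in KO_PBS, and all KO_PBS libraries lay below all WT_PBS libraries. The log2 fold change was -0.70 (SE 0.16, edgeR adjusted P = 0.00786), and -0.75 without KO_PBS replicate 4 (edgeR adjusted P = 0.0125). Its exons overlap Elavl1 on the other strand, so part of its reads may belong to that gene if the counting ignored strand. Its receptor Ccr9 had 0 to 2 counts in every library.

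Other ligands near Ccl2 and Ccl9 had folds of similar size that did not pass the threshold. Ccl2, Ccl7, Ccl11, Ccl12 and Ccl8 lie within 81.2 kb on chromosome 11. Ccl7, a further ligand of Ccr2, had 3 to 8 counts in WT_PBS and 9 to 43 in KO_PBS (log2 fold change 2.02, SE 0.68, edgeR adjusted P = 0.062, and 1.51 without KO_PBS replicate 4). Ccl8, a ligand of monocytes and T cells, was at 0.263, 0.633, 0.0778 and 0.226 CPM in WT_PBS and at 0.744, 0.708, 0.268 and 4.76 CPM in KO_PBS. The last library carried most of that mean, and the log2 fold change of Ccl8 was 2.5 (SE 0.85, edgeR adjusted P = 0.0666) with it and 0.99 (edgeR adjusted P = 0.387) without it. Ccl11 in the same cluster was at 7.90 to 8.47 CPM in WT_PBS and 6.66 to 7.87 CPM in KO_PBS (log2 fold change -0.21, SE 0.12, edgeR adjusted P = 0.29). Ccl12 had 12 counts at most in any library and was not tested.

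Ccl6, the neighbour of Ccl9 on chromosome 11, also depended on KO_PBS replicate 4. It was at 8.89, 3.28, 2.98 and 4.36 CPM in WT_PBS and at 8.35, 9.01, 4.78 and 39.8 CPM in KO_PBS. KO_PBS replicates 1 and 3 lay inside the WT_PBS range and replicate 2 just above it. The log2 fold change was 1.67 (SE 0.65, edgeR adjusted P = 0.113), and 0.60 (edgeR adjusted P = 0.495) without KO_PBS replicate 4.

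None of the 5 tested receptors passed the threshold in KO_PBS against WT_PBS. Ccr2 was at 4.50, 3.02, 2.18 and 2.78 CPM in WT_PBS and at 7.06, 5.24, 2.66 and 10.3 CPM in KO_PBS, with KO_PBS replicate 3 inside the WT_PBS range (log2 fold change 1.02, SE 0.51, edgeR adjusted P = 0.214). Cx3cr1, the receptor of Cx3cl1, was at 0.117, 0.372, 0.519 and 0.0752 CPM in WT_PBS and at 1.46, 0.312, 0.341 and 0.838 CPM in KO_PBS. KO_PBS replicates 1 and 4 were above WT_PBS and the other two inside its range (log2 fold change 1.45, SE 0.63, edgeR adjusted P = 0.151). Ccr1, the receptor of Ccl6 and Ccl9, was at 0.182 to 0.526 CPM in WT_PBS and at 0.146 to 1.16 CPM in KO_PBS (log2 fold change 0.81, SE 0.63, edgeR adjusted P = 0.439). With KO_PBS replicate 4 left out the log2 fold changes were 0.68 for Ccr2, 1.38 for Cx3cr1 and 0.28 for Ccr1.

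Cxcl12, Cxcl14, Cxcl16, Ccl24 and Ccl11 were not called between these groups. Ccl11, given above, was lower in every KO_PBS library than in any WT_PBS library, by a narrow margin. Cxcl12 was at 122.0, 94.6, 96.9 and 97.9 CPM in WT_PBS and at 86.2, 90.8, 108 and 80.0 CPM in KO_PBS, and the groups overlapped (log2 fold change -0.17, SE 0.13, edgeR adjusted P = 0.447). Cxcl14 was at 17.3 to 26.9 CPM in WT_PBS and 17.0 to 36.7 CPM in KO_PBS (log2 fold change 0.21, SE 0.23, edgeR adjusted P = 0.602). Cxcl16, the ligand of Cxcr6, had a log2 fold change of 0.66 (SE 0.30, edgeR adjusted P = 0.164), and Ccl24, a further eosinophil attractant, 1.52 (SE 0.58, edgeR adjusted P = 0.0952, and 0.73 without KO_PBS replicate 4). Ccl21a, Ccl27a, Ccl28 and Cxcr4 were tested and not called, with 24 to 72, 52 to 84, 6 to 33 and 85 to 144 counts in WT_PBS and 33 to 53, 62 to 91, 2 to 11 and 73 to 120 counts in KO_PBS. Ccl21a and Ccl27a have near-identical copies in the genome, so their counts are uncertain.

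**Figure D2:**
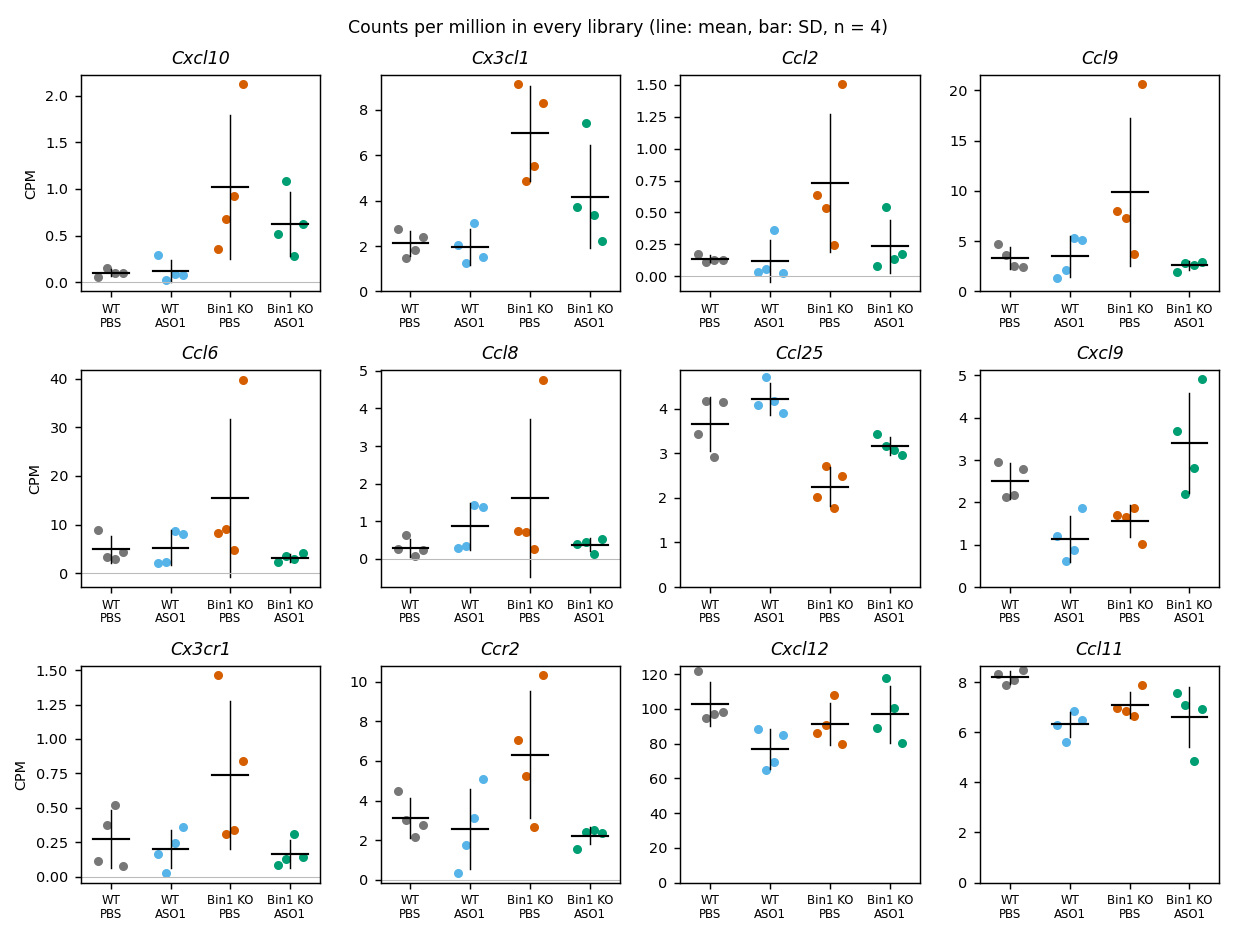
CPM (vertical axis, linear) of 12 members in every library of the 4 groups, with the group mean as a line and the SD as a bar (n = 4). KO_PBS lies above WT_PBS in every library for Cxcl10, Cx3cl1 and Ccl2, below it for Ccl25, and for Ccl9, Ccl6 and Ccl8 the highest KO_PBS library (20.6, 39.8 and 4.76 CPM) is replicate 4.

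Markers of several cell types moved between these groups. All 10 macrophage markers rose in KO_PBS against WT_PBS (median log2 fold change 1.68), and 6 of them without KO_PBS replicate 4. Among them were Cd68, at 50 to 76 counts in WT_PBS and 633 to 929 in KO_PBS, and Fcgr1, at 3 to 5 counts and 4 to 103. Their summed level was 42.3 to 69.1 CPM in WT_PBS and 110.3 to 325.9 CPM in KO_PBS. Of the 6 neutrophil markers 2 were tested and 0 called, with sums of 0.276 to 0.633 and 0.707 to 7.57 CPM, and the defining marker Ly6g at 0 counts in both groups. The single tested monocyte marker of 4, Plac8, was not called, and the sums were 0.493 to 0.702 and 0.390 to 6.48 CPM. The 7 natural killer and 5 B cell markers were too low to test, at sums of at most 0.444 and 0.610 CPM in KO_PBS. Of the 8 T cell markers 3 were tested, and they went in both directions (median log2 fold change 0.82). Cd247, a subunit of the T cell receptor complex, fell by 1.2 on the log2 scale (edgeR adjusted P = 0.0197, a call lost without WT_PBS replicate 3 or 4 or KO_PBS replicate 1 or 2). Cd2 (1.06, edgeR adjusted P = 0.168) and Cd4 (0.82, edgeR adjusted P = 0.458) were not called, and Cd3e, Cd3d and Cd3g had 5 counts or fewer in each of these libraries.

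Non-leukocyte lists moved as well. Of the 6 fibroblast and fibro-adipogenic progenitor markers 3 rose, Pdgfra (0.95, edgeR adjusted P = 0.0272), Dcn (0.58) and Dpt (0.59), with a median log2 fold change of 0.71 and sums of 763.4 to 1040 CPM in WT_PBS and 1029 to 1764 CPM in KO_PBS. None of the 6 was called without KO_PBS replicate 4. Of the 4 satellite cell markers, which mark the stem cells of muscle, 3 fell with that library and 3 without it (median -1.35), among them Pax7 (-1.39, edgeR adjusted P = 0.000654) and Calcr (-2.43, edgeR adjusted P = 0.00835), and the sums of 6.29 to 8.27 CPM in WT_PBS and 2.56 to 3.85 CPM in KO_PBS did not overlap. Of the 8 muscle fibre markers 3 fell, also with or without it: Tnnt3 (-0.40, edgeR adjusted P = 0.0153), Pvalb (-0.73) and Atp2a1 (-0.43). Among 4 tested mast cell and eosinophil markers Mcpt4 rose (1.18, edgeR adjusted P = 0.0364), and among 4 lymphatic endothelial markers Pdpn did (0.88, edgeR adjusted P = 0.0335), both calls resting on KO_PBS replicate 4. None of the 3 tested dendritic cell and 6 endothelial markers was called (medians 0.86 and -0.21). The part of these cell types in the levels of the members was not tested.

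**Figure D3:**
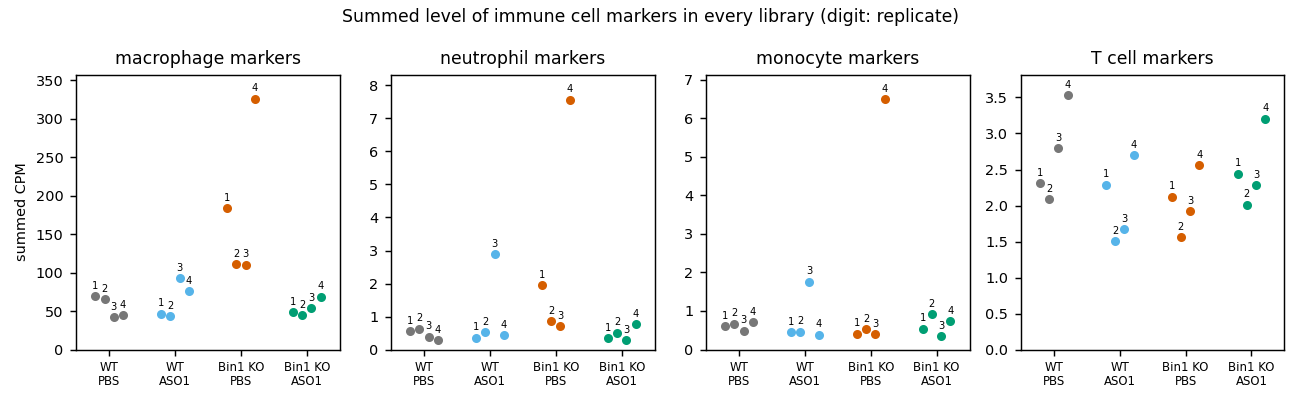
Summed CPM (vertical axis) of the macrophage, neutrophil, monocyte and T cell marker lists in every library, with the replicate number above each point. The macrophage sum lies at 110.3 to 325.9 CPM in KO_PBS and at 92.6 CPM or less in all other libraries, and KO_PBS replicate 4 is highest for the first 3 lists.

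Several weakly expressed members of myeloid and B cell recruitment were highest in KO_PBS replicate 4. Of the 23 members not tested (14 ligands and 9 receptors), 12 never exceeded 5 counts and 11 were at 0 in at least 8 of the 16 libraries. The neutrophil receptor Cxcr2 had 23 counts in KO_PBS replicate 4 and at most 3 elsewhere, the B cell attractant Cxcl13 had 41 and at most 9, and the macrophage ligands Ccl3 and Ccl4 had 8 and 5 against at most 1 and 2. These are the 4 untested members for which KO_PBS replicate 4 alone held the highest count, while WT_PBS replicate 1 did so for 3 others and 4 members were tied. Cxcr6, the receptor of Cxcl16, had 0 to 2 counts in WT_PBS, 1 to 3 in WT_ASO, 16, 9, 4 and 5 in KO_PBS and 1 to 3 in KO_ASO. Every KO_PBS library was above the WT libraries for Cxcr6, and on the CPM scale KO_PBS overlapped KO_ASO, at counts too low for the filter. Cxcr3, the receptor of Cxcl9 and Cxcl10, had 1 to 6 counts in every library. Among tested members KO_PBS replicate 4 was the highest of its group for 11 of 22.

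Between the knockout groups, only the macrophage ligand Ccl9 was called by edgeR, lower in mice given ASO1, and most alternatives lost this call. Of the 22 tested members 1 was called in KO_ASO against KO_PBS, and it was lower, where 3.64% of all tested genes were called (2.83% lower). This count is near the share over all genes. At an unadjusted P under 0.05 the edgeR test held 12 members, 2 higher and 10 lower, against 17.7% of all tested genes. Ccl2, Ccl7 and Ccl24, 3 of the 10, passed the filter on low counts only with the help of KO_PBS, the group in which they were high, so part of their lower level here is fixed by that filter. DESeq2 called 7 members, among them Ccl6, Ccl9, Ccr2, Cx3cr1, Ccl25 and Cxcl9, where it called 7.06% of all tested genes. The median log2 fold change of the tested members was -0.72, -0.55 without KO_PBS replicate 4, and that of all tested genes 0.01. Leaving out the 3 members that the filter favoured, it was -0.49 over 19. Both comparisons use the same KO_PBS libraries, so a member that was high in them by chance would also be lower here, and how much of the folds this sharing accounts for was not tested.

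Ccl9 was at 7.97, 7.34, 3.73 and 20.6 CPM in KO_PBS and at 1.93, 2.84, 2.63 and 2.96 CPM in KO_ASO. Every KO_ASO library lay below every KO_PBS library (log2 fold change -1.94, SE 0.49, edgeR adjusted P = 0.0406). The call was lost in 13 of the 23 alternatives, among them limma-voom and the compared groups alone. It was also lost on leaving out KO_PBS replicate 4 (-1.30, edgeR adjusted P = 0.111), KO_PBS replicate 1, WT_PBS replicate 2, 3 or 4, or any 1 KO_ASO library.

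Ccl6 fell short of the threshold with a larger fold. It was at 2.23, 3.52, 2.87 and 4.11 CPM in KO_ASO, below the 4.78 CPM of the lowest KO_PBS library (log2 fold change -2.29, SE 0.68, edgeR adjusted P = 0.0791). Without KO_PBS replicate 4 the log2 fold change was -1.22 (edgeR adjusted P = 0.247). Ccl8 had 15, 14, 4 and 15 counts in KO_ASO against 27, 25, 11 and 193 in KO_PBS (log2 fold change -2.09, SE 0.83, edgeR adjusted P = 0.186, and -0.59 without KO_PBS replicate 4). The monocyte ligands Ccl2 and Ccl7 had 3, 17, 4 and 5 and 2, 4, 2 and 7 counts in KO_ASO. Their log2 fold changes were -1.64 (SE 0.66, edgeR adjusted P = 0.192) and -2.19 (SE 0.71, edgeR adjusted P = 0.0988), and -1.01 and -1.69 without KO_PBS replicate 4. Ccl24 had 4 to 8 counts in KO_ASO and 10 to 62 in KO_PBS (-1.82, SE 0.60, edgeR adjusted P = 0.108, and -1.04 without that library).

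Receptors of monocytes and macrophages had negative folds that did not pass the edgeR threshold. Ccr2 was at 1.57, 2.40, 2.53 and 2.37 CPM in KO_ASO, each below the lowest KO_PBS library (log2 fold change -1.51, SE 0.53, edgeR adjusted P = 0.133). Cx3cr1 was at 0.0815, 0.128, 0.311 and 0.139 CPM in KO_ASO, just below the lowest KO_PBS library at 0.312 CPM (-2.17, SE 0.69, edgeR adjusted P = 0.0948). The highest KO_PBS library for Cx3cr1 was replicate 1, at 1.46 CPM. Its fold hardly depended on KO_PBS replicate 4 (-2.10 without that library, edgeR adjusted P = 0.163). Ccr1 was at 0.0959 to 0.485 CPM in KO_ASO (-1.41, SE 0.67, edgeR adjusted P = 0.286). Leaving out that library gave -1.18 for Ccr2 and -0.88 for Ccr1.

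Cxcl10 and Cx3cl1 differed less between the knockout groups. Cxcl10 had 19, 34, 8 and 18 counts in KO_ASO, inside the span of the 13 to 86 counts of KO_PBS but for replicate 3 (log2 fold change -0.71, SE 0.51, edgeR adjusted P = 0.526). Without KO_PBS replicate 4 the log2 fold change of Cxcl10 was -0.08. Cx3cl1 was at 3.72, 7.41, 3.36 and 2.23 CPM in KO_ASO, of which only replicate 2 was within the KO_PBS range (-0.73, SE 0.34, edgeR adjusted P = 0.264). Ccl25 was at 3.42, 3.16, 3.08 and 2.96 CPM in KO_ASO, above all KO_PBS libraries (0.49, SE 0.16, edgeR adjusted P = 0.0969). Leaving out KO_PBS replicate 4 gave -0.65 for Cx3cl1 and 0.53 for Ccl25.

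Cxcl12, Ccl11 and Cxcl14 overlapped between the knockout groups. Cxcl12 was at 88.7, 118, 100 and 80.2 CPM in KO_ASO (log2 fold change 0.08, SE 0.13, edgeR adjusted P = 0.826) and Ccl11 at 7.55, 7.09, 4.85 and 6.93 CPM (-0.10, SE 0.12, edgeR adjusted P = 0.75). Cxcl14 was at 15.7, 22.1, 15.5 and 17.4 CPM (-0.49, SE 0.23, edgeR adjusted P = 0.288), and Cxcl16 had a log2 fold change of -0.38 (SE 0.30, edgeR adjusted P = 0.567). For Cxcl12 and Ccl11 the sign of this small difference changed with the setting.

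**Figure D4:**
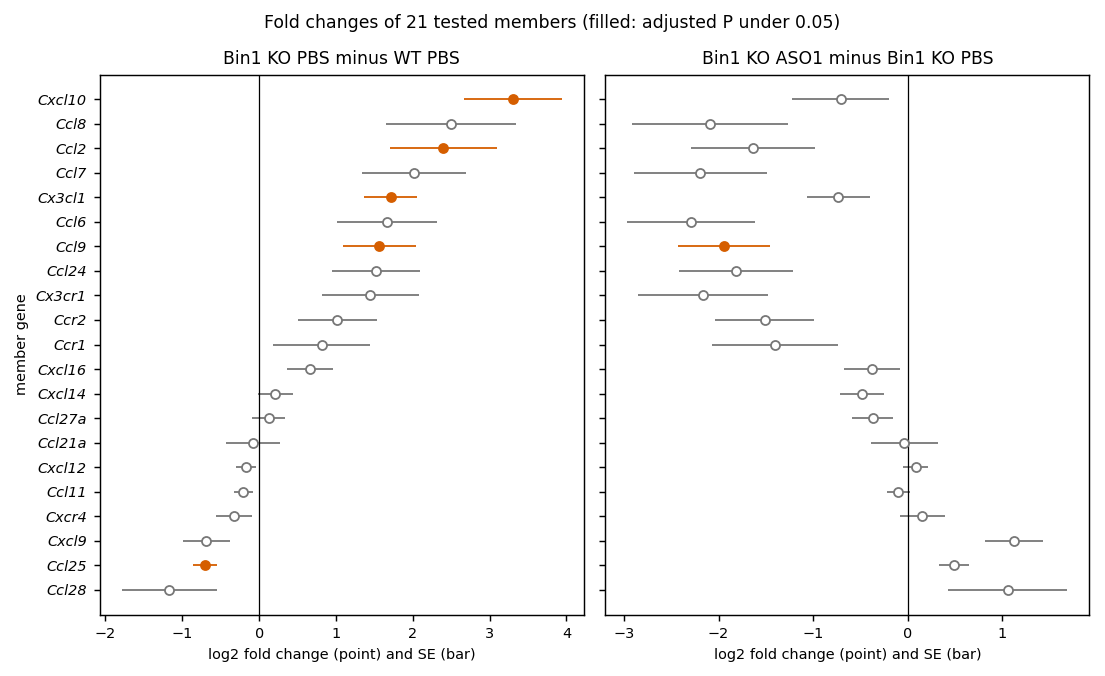
Log2 fold change (point) and SE (bar) of 21 tested members, ordered by the left panel, for KO_PBS minus WT_PBS (left) and KO_ASO minus KO_PBS (right), which share KO_PBS; filled points passed an edgeR adjusted P under 0.05. Cxcl10 (3.30), Ccl2, Cx3cl1, Ccl9 and Ccl25 (-0.70) are filled on the left and Ccl9 (-1.94) on the right.

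**Figure D5:**
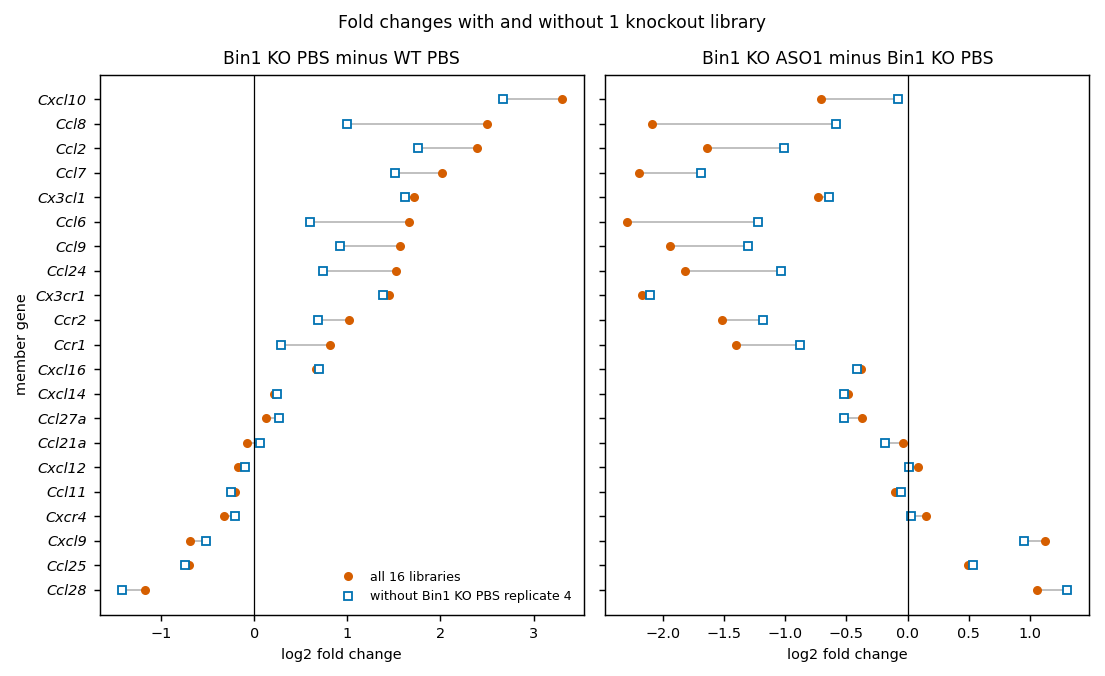
Log2 fold change of 21 tested members with all 16 libraries (filled circles) and without KO_PBS replicate 4 (open squares) in the same 2 comparisons. Ccl8 moves from 2.5 to 0.99 and Ccl6 from 1.67 to 0.60 in the left panel, while Cx3cl1 (1.71 to 1.62) and Ccl25 (-0.70 to -0.75) hardly move.

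Without KO_PBS replicate 4, 3 members remained called in KO_PBS against WT_PBS (Cxcl10, Cx3cl1 and Ccl25), where 10% of all tested genes were, and 0 in KO_ASO against KO_PBS, where 2.14% were. Macrophage markers also moved in the latter comparison: 6 of 10 fell (median log2 fold change -1.61), 4 without KO_PBS replicate 4, and their sum was 45.0 to 68.7 CPM in KO_ASO, close to the 42.3 to 69.1 CPM of WT_PBS. The fibroblast marker Dcn fell (-0.68, edgeR adjusted P = 0.039), 1 of 6 on its list, with sums of 412.2 to 1373 CPM in KO_ASO and 1029 to 1764 CPM in KO_PBS. Of the 3 tested T cell markers Cd2 fell (-2.14, edgeR adjusted P = 0.0396), while Cd247 was at 0.99 and not called (edgeR adjusted P = 0.098), the median was -0.14, and the sums were 2.01 to 3.21 CPM in KO_ASO and 1.56 to 2.56 CPM in KO_PBS. Neither list held a call without KO_PBS replicate 4. No marker of the muscle fibre, satellite cell, endothelial, dendritic, mast cell or neutrophil lists was called here. The part of these cells in the levels of the members was not tested.

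Cxcl9 differed in its ASO1 effect between the genotypes. This ligand (ENSMUSG00000029417, chr5:92321347-92328079, minus strand), induced by interferon gamma, was at 2.95, 2.12, 2.18 and 2.78 CPM in WT_PBS, 1.21, 0.608, 0.880 and 1.86 CPM in WT_ASO, 1.71, 1.64, 1.88 and 1.01 CPM in KO_PBS, and 3.69, 2.21, 2.80 and 4.91 CPM in KO_ASO. It was thus lower with ASO1 in WT mice and higher with ASO1 in knockout mice, with no overlap between the 2 groups of either pair. Neither difference was called by edgeR: the log2 fold change was -1.14 (SE 0.31, edgeR adjusted P = 0.56) in WT and 1.12 (SE 0.30, edgeR adjusted P = 0.0502) in knockout mice. DESeq2 (adjusted P = 0.00782) and limma-voom (adjusted P = 0.0326) called the difference in knockout mice, and neither called that in WT mice. The difference between them was 2.26 (SE 0.44, edgeR adjusted P = 0.0314), the only member among 22 called for it, where 0.575% of all tested genes were. This call was lost on leaving out any 1 of 9 libraries (WT_PBS replicates 1 and 4, WT_ASO 1 and 3, KO_PBS 1, 2 and 4, KO_ASO 1 and 3), with edgeR adjusted P of at most 0.0885.

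Ccl28, a ligand of mucosal tissues with 2 to 33 counts, had folds of the same signs, -0.85 in WT and 1.06 in knockout mice, with overlapping groups and an interaction of 1.91 (SE 0.88, edgeR adjusted P = 0.384). Cxcl10, the neighbour of Cxcl9, within 27.5 kb on chromosome 5, gave an interaction of -0.96 (SE 0.96, edgeR adjusted P = 0.748). In KO_PBS against WT_PBS the log2 fold change was -0.69 for Cxcl9 (SE 0.30, edgeR adjusted P = 0.153, and -0.52 without KO_PBS replicate 4) and 3.30 for Cxcl10, with no library of KO_PBS inside the WT_PBS range for either gene. Cxcl11, a further Cxcr3 ligand, is annotated as a polymorphic pseudogene and so is not a member. It had 6 to 22, 3 to 21, 13 to 19 and 8 to 40 counts in WT_PBS, WT_ASO, KO_PBS and KO_ASO. Interactions of the myeloid ligands Ccl8, Ccl6 and Ccl9 were -3.68 (SE 1.2, edgeR adjusted P = 0.194), -2.40 (SE 0.94, edgeR adjusted P = 0.298) and -2.0 (SE 0.68, edgeR adjusted P = 0.22), and -2.17, -1.33 and -1.36 without KO_PBS replicate 4.

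In WT mice, 0 of 22 members were called for ASO1 by edgeR, DESeq2 or limma-voom, where edgeR called 0.00668% of all tested genes. At an unadjusted P under 0.05 the edgeR test held 5 members, all lower (Cxcl9, Cxcl12, Ccl11, Ccl21a and Cxcl14), against 6.45% of all tested genes. Cxcl12 was at 88.3, 65.0, 69.5 and 85.0 CPM in WT_ASO, all below the lowest WT_PBS library at 94.6 CPM (log2 fold change -0.42, SE 0.13, edgeR adjusted P = 0.687). Ccl11 was at 6.28, 5.61, 6.83 and 6.5 CPM, below the 7.90 CPM of the lowest WT_PBS library (-0.38, SE 0.12, edgeR adjusted P = 0.687). Cxcl14 was at 10.2, 13.5, 20.9 and 13.7 CPM and overlapped WT_PBS (-0.55, SE 0.23, edgeR adjusted P = 0.751).

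The myeloid ligands Ccl6, Ccl9 and Ccl8 divided the WT_ASO libraries into pairs. Ccl2, at 1, 2, 12 and 1 counts in replicates 1 to 4, did not. Ccl6 was at 2.09 and 2.23 CPM in replicates 1 and 2 and at 8.59 and 8.12 CPM in replicates 3 and 4, Ccl9 at 1.37, 2.17, 5.28 and 5.14 CPM, and Ccl8 at 0.295, 0.347, 1.43 and 1.39 CPM. The macrophage markers summed to 46.7 and 43.5 CPM in the first pair and to 92.6 and 75.9 CPM in the second. Fibroblast and fibro-adipogenic progenitor markers were split the same way, at 336 and 651 CPM against 1197 and 1235 CPM, and so were interferon gamma response genes, at 144 and 133 CPM against 185 and 201 CPM. Monocyte and neutrophil sums were high in replicate 3 alone, at 1.76 and 2.88 CPM against at most 0.463 and 0.521 CPM in the others. Fibroblast markers divided KO_ASO by the same replicate numbers, at 412 and 453 CPM in replicates 1 and 2 and at 1130 and 1373 CPM in replicates 3 and 4, whereas the macrophage sums, at 48.3, 45.0, 53.5 and 68.7 CPM, lay closer together. The part of these cell types, or of what the replicate numbers may share, in these levels was not tested.

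KO_ASO was also set against both WT groups. Against WT_PBS 0 of 22 members were called by edgeR (0.0401% of all tested genes were), and 3 were held at an unadjusted P under 0.05, Cxcl10, Cx3cl1 and Ccl11, against 8.22% of all tested genes. Cxcl10, at 0.516, 1.09, 0.277 and 0.627 CPM in KO_ASO, was above all WT_PBS libraries with a log2 fold change of 2.59 (SE 0.66, edgeR adjusted P = 0.234). DESeq2 called it, where it called 0.635% of all tested genes. Cx3cl1 gave 0.98 (SE 0.35, edgeR adjusted P = 0.491), with KO_ASO replicate 4 inside the WT_PBS range.

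Against WT_ASO 0 of 22 members were called by edgeR (0.0735% of all tested genes were), and 6 were held at an unadjusted P under 0.05 against 15.1% of all tested genes. Cxcl9 gave 1.57 (SE 0.31, edgeR adjusted P = 0.0745) without overlap between the groups, and was called by DESeq2, which called 2.82% of all tested genes. Cxcl10 gave 2.34 (SE 0.65, edgeR adjusted P = 0.133) and Cx3cl1 1.1 (SE 0.35, edgeR adjusted P = 0.179), both with overlapping groups. Ccl25 gave -0.42 (SE 0.15, edgeR adjusted P = 0.227) without overlap.

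Genes around the chemokine system were read from lists of other receptors and signalling genes, of the interferon gamma response and of NF-kappaB targets. Of 22 tested related genes 2 rose and 1 fell in KO_PBS against WT_PBS, where 12.6% of all tested genes were called (median log2 fold change 0.22): the platelet and macrophage chemokine Pf4 rose by 2.2 (SE 0.55, edgeR adjusted P = 0.0168), the chemerin receptor Cmklr1 by 0.91 (SE 0.22, edgeR adjusted P = 0.0123), and the receptor kinase Grk2 fell by 0.27 (SE 0.08, edgeR adjusted P = 0.0474). Leaving out KO_PBS replicate 4, Pf4 was at 1.28 (edgeR adjusted P = 0.0495) and Cmklr1 at 0.87 (edgeR adjusted P = 0.0303). The call on Grk2 was lost there (edgeR adjusted P = 0.0886) and on leaving out any 1 of 11 other libraries, applying no filter or scaling by library totals alone.

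In KO_ASO against KO_PBS, where 3.64% of all tested genes were called, 1 of the 22 fell, Dock2, which drives leukocyte migration (-1.59, SE 0.40, edgeR adjusted P = 0.0379), and Pf4 was at -2.0 (SE 0.54, edgeR adjusted P = 0.0539). These were, without KO_PBS replicate 4, -1.35 (edgeR adjusted P = 0.096) for Dock2 and -1.09 (edgeR adjusted P = 0.166) for Pf4. The call on Dock2 was also lost without KO_PBS replicate 1 or KO_ASO replicate 1, 2 or 3.

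Of the 8 tested NF-kappaB and cytokine genes, Nfkb2 (1.5, SE 0.14, edgeR adjusted P = 1.14e-05), Relb (0.83, SE 0.185, edgeR adjusted P = 0.00791) and Birc3 (0.51) rose and Vcam1 (-0.59) fell in KO_PBS against WT_PBS. Nfkb2 and Relb, subunits of the non-canonical NF-kappaB complex, fell in KO_ASO against KO_PBS by 1.0 and 0.70 on the log2 scale (edgeR adjusted P = 0.00108 and 0.0448). The calls on Nfkb2 held without KO_PBS replicate 4 in both comparisons (edgeR adjusted P = 4.26e-05 and 0.00292), that on Relb held in the first (edgeR adjusted P = 0.0145) and not in the second (edgeR adjusted P = 0.072), and that on Vcam1 was lost (edgeR adjusted P = 0.0572). None of the 16 tested interferon gamma genes was called in KO_PBS against WT_PBS (median -0.10). In KO_ASO against KO_PBS 1 of the 16 fell, Ciita, the class II transactivator (-1.37, SE 0.35, edgeR adjusted P = 0.0421, and 0.0931 without KO_PBS replicate 4), while 11 of the 16 had positive folds (median 0.51). In WT_ASO against WT_PBS 0 of the 16 were called and 1 had a positive fold (median -0.24). The guanosine triphosphatase Iigp1, with log2 fold changes of -1.14 in WT and 1.30 in knockout mice under ASO1, had an interaction of 2.43 (SE 0.65, edgeR adjusted P = 0.124), which DESeq2 called.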

How the data were processed

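RNA from the tibialis anterior of 16 mice was sequenced, 4 libraries per group, and groups were taken from the sample titles. The deposited values are raw counts of reads per Ensembl gene. HTSeq 0.6.1p1, STAR 2.5.3a, Bowtie2 2.2.8 and cutadapt 1.10 are listed by the submitters, with the build GRCm38 (mm10), and what each did is not said. A paper supplied with the series describes other mice and was not used for methods. From the counts, the following was computed in R 4.3.3. Genes were kept by the edgeR 4.0.16 filter (the equivalent of 10 counts in at least 4 libraries), leaving 14960 of 29730. Libraries were scaled by TMM, and edgeR's robust quasi-likelihood test was fitted to all 16 libraries with 1 mean per group, with Benjamini-Hochberg adjustment over all tested genes and a threshold of 0.05. The SE was taken from the log2 fold change and the F statistic. Exon lengths and symbols came from GENCODE M21. The method was tested on simulated data. Alternatives were other scalings, no filter, DESeq2 1.42.0, limma-voom (limma 3.58.1), the compared groups alone, a block for the replicate number and leaving out each library.

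Libraries held 27591900 to 40862854 counts, and no pair of replicates agreed within sampling noise. Of the tested members 1 is not reported here, although counts over the members include it. Members with few counts are given as raw counts. The genes named were those called in any comparison, the 6 with the highest RPKM and the ligand or receptor partners of called genes, and the remaining tested members are given more briefly. The genes named from the lists were chosen after their values were seen and are not always the 2 with the smallest P. The members and lists were chosen with earlier results of these data known.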

Additional observations from a re-analysis of the deposited data

Results flagged for a closer look

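For each of 21 tested members, the gap between the highest or lowest library of a group and its nearest neighbour was divided by the range of the group. Of 84 groups, 7 were above Dixon's 95% critical value for 4 samples, which chance passes in about 5% of groups. KO_PBS replicate 4 was far above its group for Ccl8 (0.894, at 4.76 CPM against 0.268 to 0.744), Ccl6 (0.879, at 39.8 CPM against 4.78 to 9.01) and Ccl24 (0.858, at 1.53 CPM against 0.276 to 0.453). KO_ASO replicate 1 was below its group for Ccr2 (0.835, at 1.57 CPM against 2.37 to 2.53). WT_ASO replicate 3 was high for Ccl2 (0.911, at 12 counts). WT_PBS replicate 3 was high for Ccl27a (0.884, at 2.18 CPM against 1.93 to 1.96), and WT_PBS replicate 1 for Cxcl12 (0.878, at 122.0 CPM against 94.6 to 97.9). The ASO1 effect on Cxcl9 differed between the genotypes by 2.26 on the log2 scale, as tested by the interaction term in edgeR.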

How the results depend on the processing

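Calls on Cxcl10, Cx3cl1 and Ccl25 in KO_PBS against WT_PBS held in all 23 alternatives. In that comparison 5 members were called, 7 with DESeq2, 4 with limma-voom (not Ccl9), 4 with the compared groups alone (where Ccl2 was not tested), 3 with the replicate block (not Ccl2, at edgeR adjusted P = 0.0541, or Ccl9, at 0.0789) and 3 to 7 on leaving out 1 library (3 without WT_PBS replicate 2, 3 or 4 or KO_PBS replicate 1 or 4). Of all tested genes, limma-voom called 18% there, the compared groups alone 14.3% and the replicate block 15.5%. In KO_ASO against KO_PBS 1 was called, 2 with RLE factors, 7 with DESeq2, 1 with limma-voom (Cxcl9 and not Ccl9, where it called 7.95% of all tested genes), 0 with the compared groups alone, 2 with the replicate block (not Ccl9, at edgeR adjusted P = 0.0613) and 0 to 3 on leaving out 1 library (3 without WT_ASO replicate 4 or KO_PBS replicate 3, 2 without WT_ASO replicate 1 or 2). For the difference between the genotypes in the ASO1 effect 1 was called, 2 with DESeq2 (Ccl8 and Cxcl9, where it called 2.57% of all tested genes) and 0 to 1 on leaving out 1 library. DESeq2 called 1 in KO_ASO against WT_PBS (Cxcl10, where it called 0.635% of all tested genes) and 1 in KO_ASO against WT_ASO (Cxcl9, where it called 2.82%). In the latter comparison the replicate block called 1 and leaving out 1 library 0 to 1. The labels do not say what the replicate numbers share. Same-numbered libraries of 2 groups had deviation correlations of -0.078 to 0.435, over 0.1 in 11 of 24 pairs. Among the 4 libraries of another group, a library correlated best with its own number in 29 of 48 cases, more often than chance gives. This is a hint from the data only, so the mice were not taken as paired. Over all genes the block called 2322 against 1878 in KO_PBS against WT_PBS, 752 against 544 in KO_ASO against KO_PBS and 44 against 11 in KO_ASO against WT_ASO. The share of all tested genes called moved by over 1.5 times on leaving out 1 library. In KO_PBS against WT_PBS it was 12.6%, 6.56% without KO_PBS replicate 1, 8.24% without WT_PBS replicate 2 and 7.15% without WT_PBS replicate 4, and in KO_ASO against KO_PBS it was 3.64%, 1.37% and 2.14% without KO_PBS replicates 1 and 4, and 1.4%, 2.15%, 1.73% and 5.47% without KO_ASO replicates 1 to 4. For the difference between the genotypes it was 0.575%, and 0.152% to 0.671% on leaving out 1 library, lower by over 1.5 times without WT_PBS replicate 1, 2 or 4, WT_ASO replicate 1 or 3, KO_PBS replicate 1, 2 or 4, or KO_ASO replicate 1, 2 or 3. In KO_ASO against WT_ASO the share was 0.0735%, and 0.0131% to 0.125% on leaving out 1 library. In KO_ASO against WT_PBS it was 0.0401%, and 0.0262% to 0.0723%. DESeq2 called 16.9% in KO_PBS against WT_PBS. Small differences changed sign: Cxcl12 in KO_ASO against KO_PBS was -0.0081 with library totals only and -0.035 to 0.177 on leaving out 1 library, Ccl11 there -0.171 to 0.0184, and Cxcl14 in KO_PBS against WT_PBS -0.0365 to 0.355. With library totals only, the share of higher calls in KO_ASO against KO_PBS was 8.29% against 22.1%, and in KO_ASO against WT_ASO 87.5% against 54.5%, with a median of all genes of 0.11. The cause of these changes was not tested. Few counts limit Ccl2, Ccl7, Cxcl10 and most receptors.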
